A study of Rattus norvegicus with 8 samples.

Results

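The genes of store-operated calcium entry and of the related TRPC and TRPM4 cation channels were examined in the saphenous artery, a muscular artery of the rat hind limb. The genes, 9 in number, were chosen by name, namely the calcium sensors Stim1 and Stim2, the pore subunits Orai1, Orai2 and Orai3, the channels Trpc1, Trpc4 and Trpc6, and Trpm4. Each had 1 row among the 19239 rows of the deposited expression table, and all 9 were measured. The study compared male Wistar rats of 2 ages without further treatment. The adult group held 4 arrays from rats aged 2 to 3 months, each with RNA from the 2 saphenous arteries of 1 animal. The young group held 4 arrays from rats aged 10 to 12 days, each with RNA pooled from the 4 arteries of 2 animals, so that a young array averaged over its 2 animals. The arteries were whole vessels, and a lower level of an mRNA can come from fewer cells that hold it or from less of it per cell, which cannot be told apart here.

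When the calcium store of the sarcoplasmic reticulum is emptied, STIM proteins in its membrane sense the fall, gather near the plasma membrane and open ORAI channels, which are highly selective for calcium. STIM1 is the principal sensor of a strong depletion, while STIM2 reacts to smaller falls and guards the resting calcium level. TRPC channels are non-selective cation channels opened downstream of receptors that couple to phospholipase C. TRPC6 is gated by diacylglycerol and is known in vascular smooth muscle for depolarisation on receptor stimulation, TRPC1 forms channels mainly together with other TRPC subunits, and TRPC4 can be opened by receptors that signal through G proteins. TRPM4 is opened by intracellular calcium, passes sodium but not calcium, and takes part in the depolarisation of arterial smooth muscle.

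Upstream sequences of 3 of the 9 genes are described here by their base composition and by short motifs. The table of promoters held 7 of the 9 genes, Orai2 and Trpc1 not among them, and in 3 of these, Orai1, Orai3 and Trpc6, the window of 250 bases ended where the annotated gene begins. These 3 are printed 5′ to 3′ on the strand of the gene (RefSeq, build GRCr8), as the only windows that met this condition. Of their genes, 1 rose with age, 1 fell and 1 did not pass the test. Capitals mark each CG dinucleotide.
Orai1: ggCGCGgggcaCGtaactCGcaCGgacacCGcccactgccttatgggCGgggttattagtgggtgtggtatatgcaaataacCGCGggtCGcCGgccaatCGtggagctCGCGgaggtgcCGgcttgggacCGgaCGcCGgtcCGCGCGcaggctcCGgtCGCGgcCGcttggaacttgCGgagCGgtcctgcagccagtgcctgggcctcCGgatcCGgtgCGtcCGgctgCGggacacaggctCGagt
Orai3: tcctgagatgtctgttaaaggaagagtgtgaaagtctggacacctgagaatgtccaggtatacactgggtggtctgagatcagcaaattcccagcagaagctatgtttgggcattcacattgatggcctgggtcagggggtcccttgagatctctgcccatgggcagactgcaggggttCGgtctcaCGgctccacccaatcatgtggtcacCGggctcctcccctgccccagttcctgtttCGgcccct
Trpc6: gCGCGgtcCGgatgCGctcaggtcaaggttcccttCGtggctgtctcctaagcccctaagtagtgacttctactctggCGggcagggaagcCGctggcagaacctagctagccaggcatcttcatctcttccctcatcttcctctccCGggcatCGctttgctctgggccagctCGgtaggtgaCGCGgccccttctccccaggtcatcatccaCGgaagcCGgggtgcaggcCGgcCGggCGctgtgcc
The windows lay at chr12:39209031-39209280 on the minus strand for Orai1, at chr1:191811421-191811670 on the plus strand for Orai3 and at chr8:14043966-14044215 on the plus strand for Trpc6. Orai1 held 33 CG dinucleotides and 69.6% G and C, Trpc6 held 17 and 64.4%, and Orai3 held 4 and 55.6%. The medians of the 19334 promoters with the same kind of window were 4 CG dinucleotides and 49.2% G and C. Thus Orai1 and Trpc6 were CG-rich and Orai3 was at the median for CG dinucleotides. The GC box GGGCGG (or CCGCCC on the other strand) occurred 2 times in Orai1 and was not found in the other two windows, and it was present in 24.9% of the promoters compared. The sequence CCAAT (or ATTGG) occurred in Orai1 and Orai3, as in 34.2% of promoters. The core GGAAA (or TTTCC) that NFAT proteins bind was not found in the 3 windows and occurred in 57.5% of promoters, and the CArG box bound by serum response factor was not found in them and occurred in 1.61% of promoters. Both strands were searched, and a CArG box can itself contain the letters CCAAT or ATTGG.

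The calcium sensors and the TRPC channels each held a gene that rose and a gene that fell. Stim1, Orai3 and Trpc1 rose toward adulthood, Stim2 and Trpc6 fell, and Orai1, Orai2, Trpc4 and Trpm4 did not pass the test (limma over all 19239 rows, two-sided, Benjamini-Hochberg adjusted p below 0.01). Thus 3 genes were called higher and 2 lower in adult arteries, whereas 32.7% of all rows were called, 16.7% higher and 16% lower. In these 5 genes the adult and young values did not overlap, which was also seen in 46% of all rows (24.4% with the adult and 21.5% with the young values above). With a fold of at least 1.5 asked for in addition, Stim1, Orai3 and Stim2 were left, that is 3 of 9 genes against 7.42% of all rows. The median difference of the 9 genes was 0.01, against 0.002 over all rows. Each difference is adult minus young in log2 units, followed by ± and its standard error from limma, over 4 arrays of either age. A level is the deposited log2 expression value, and levels of different genes are not ranked because each probe set has a brightness of its own. An array gives 1 value per gene, so that splice forms were not separated.

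**Figure D1:**
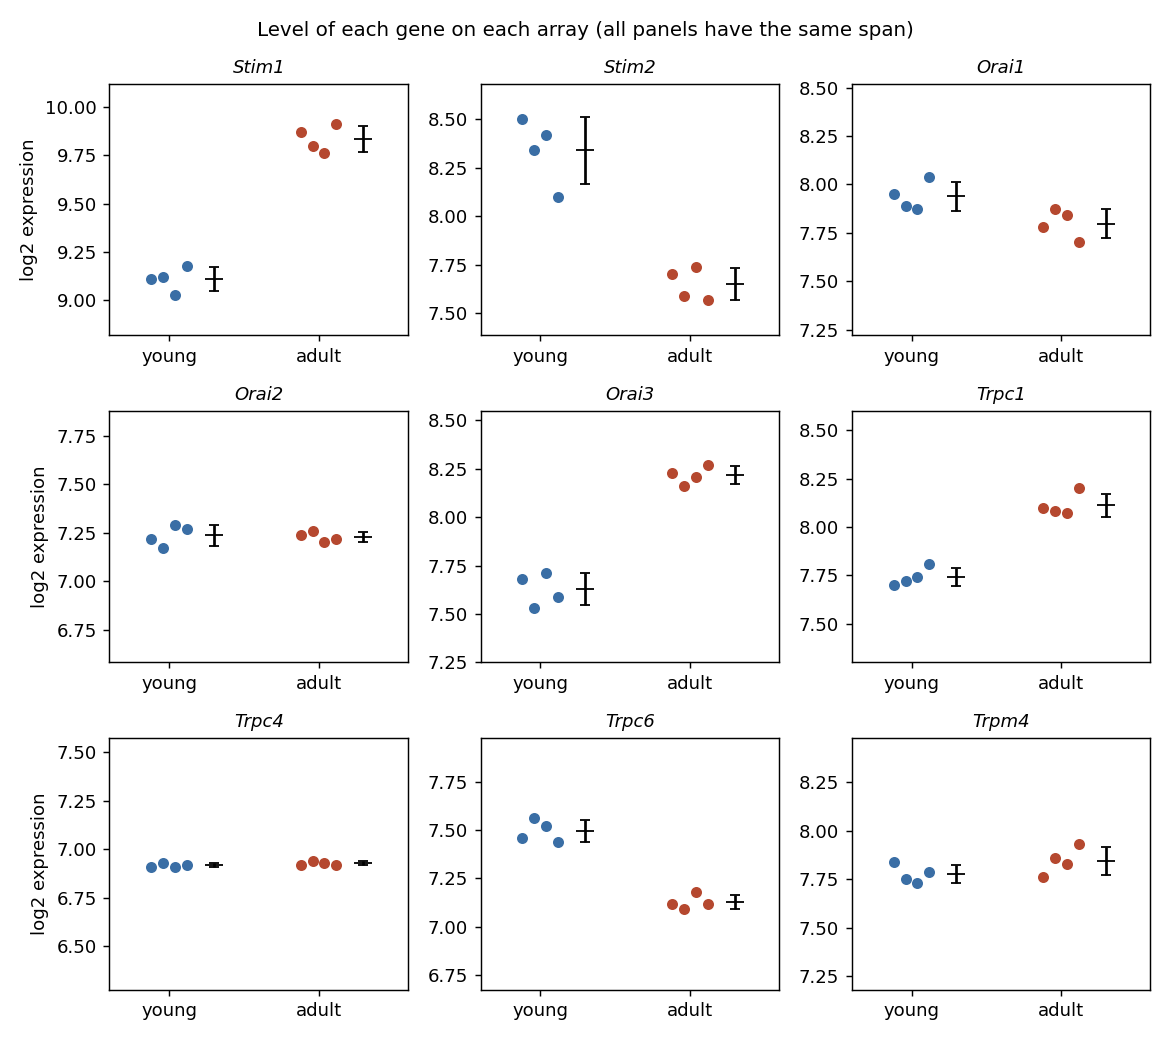
Log2 expression (vertical axis) of each of the 9 genes on the 4 young (blue) and 4 adult (red) arrays, with the mean and SD of each age in black; every panel spans the same number of log2 units. Stim1, Orai3 and Trpc1 lie higher and Stim2 and Trpc6 lower on all adult arrays, and the ages overlap in the other panels.

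Both calcium sensors changed, in opposite directions. Stim1 (Entrez Gene 361618) was at 9.87, 9.80, 9.76 and 9.91 in adult replicates 1 to 4 and at 9.11, 9.12, 9.03 and 9.18 in young replicates 1 to 4. The lowest adult array stood 0.58 above the highest young array. The adult mean was 9.84 ± 0.07 and the young mean 9.11 ± 0.06 (SD, n = 4 each), a rise of 0.73 ± 0.042 (limma adjusted p = 1.63e-05), or 1.66-fold with a 95% interval of 1.55 to 1.78. A difference of at least this size was found in 5.2% of all rows.

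Stim2 (Entrez Gene 117087) was at 7.70, 7.59, 7.74 and 7.57 in adult replicates 1 to 4 and at 8.50, 8.34, 8.42 and 8.10 in young replicates 1 to 4. All adult arrays were below all young arrays, and young replicate 4 was the lowest of its group, 0.36 above the highest adult array. Stim2 fell by 0.69 ± 0.088 (limma adjusted p = 0.000572), or 1.62-fold with a 95% interval of 1.40 to 1.86, and 5.76% of all rows differed by at least as much. Its young SD of 0.17 was the widest of the 9 genes in either age. The fall was 0.77 on the log2 scale without young replicate 4 and 1.12 when the lowest intensity of the table was subtracted before the logarithm, which stretches weak signals.

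Of the 3 pore subunits, Orai3 rose and the other two did not pass the test. Orai3 (Entrez Gene 309000), a subunit found in mammals only, was at 8.23, 8.16, 8.21 and 8.27 in adult replicates 1 to 4 and at 7.68, 7.53, 7.71 and 7.59 in young replicates 1 to 4. Every adult value was above every young value, with a gap of 0.46. The rise was 0.59 ± 0.043 (limma adjusted p = 4.28e-05), or 1.51-fold with a 95% interval of 1.40 to 1.62, and it was 0.99 after subtraction of the lowest intensity.

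Orai1 (Entrez Gene 304496), the subunit of the classical calcium release-activated current of immune cells, was at 7.78, 7.87, 7.84 and 7.70 in adult and at 7.95, 7.89, 7.87 and 8.04 in young replicates 1 to 4. The ages touched at 7.87, with the highest adult and the lowest young array at nearly the same value. The difference of -0.14 ± 0.049 did not pass the threshold (limma adjusted p = 0.0512, 95% interval -0.26 to -0.03), and 33.7% of all rows differed by at least as much. It was -0.07 when the mean of 28 ribosomal protein genes was set equal on all arrays (ribosomal protein centring) and -0.24 after subtraction of the lowest intensity, with adjusted p values of 0.643 and 0.0375. Orai2 (Entrez Gene 304592), which in mouse T cells limits the current carried by ORAI1, lay between 7.20 and 7.26 in adult and between 7.17 and 7.29 in young arteries. The adult values fell inside the young range, and the difference of -0.01 ± 0.027 had a 95% interval of -0.07 to 0.06 (limma adjusted p = 0.853). Its sign turned to 0.06 with ribosomal protein centring.

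The TRPC channels also went both ways. Trpc1 (Entrez Gene 89821) was at 8.10, 8.08, 8.07 and 8.20 in adult replicates 1 to 4 and at 7.70, 7.72, 7.74 and 7.81 in young replicates 1 to 4. The adult values all lay above the young ones, by at least 0.26. It rose by 0.37 ± 0.035 (limma adjusted p = 0.000133), or 1.29-fold with a 95% interval of 1.22 to 1.37, and by 0.61 after subtraction of the lowest intensity. A difference of this size or more was present in 14.9% of all rows.

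Trpc6 (Entrez Gene 89823) was at 7.12, 7.09, 7.18 and 7.12 in adult replicates 1 to 4 and at 7.46, 7.56, 7.52 and 7.44 in young replicates 1 to 4. The adult values all lay below the young ones, and their mean of 7.13 was 0.33 above 6.80, the lowest value of the table. Trpc6 fell by 0.37 ± 0.032 (limma adjusted p = 8.96e-05), or 1.29-fold with a 95% interval of 1.23 to 1.36. Close to that lowest value log2 differences are compressed, and with the lowest intensity subtracted the fall was 0.94, the largest shift of a difference with this setting among the 9 genes. Trpc4 (Entrez Gene 84494) gave values from 6.92 to 6.94 in adult and from 6.91 to 6.93 in young arteries. On all 8 arrays it was below the lower quartile of the table, and its means were 0.13 and 0.12 above the lowest value, so that a change of Trpc4 was not detectable at these signals (0.01 ± 0.009, limma adjusted p = 0.242).

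Trpm4 (Entrez Gene 171143) was at 7.76, 7.86, 7.83 and 7.93 in adult and at 7.84, 7.75, 7.73 and 7.79 in young replicates 1 to 4. The ages overlapped, with adult replicate 1 below 2 of the young arrays. The difference of 0.07 ± 0.04 had a 95% interval of -0.03 to 0.16 (limma adjusted p = 0.228), whose upper end is 1.12-fold on the scale of the deposited values. With ribosomal protein centring the difference was 0.13 ± 0.0905 (limma adjusted p = 0.361), so that upper end depends on the centring.

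**Figure D2:**
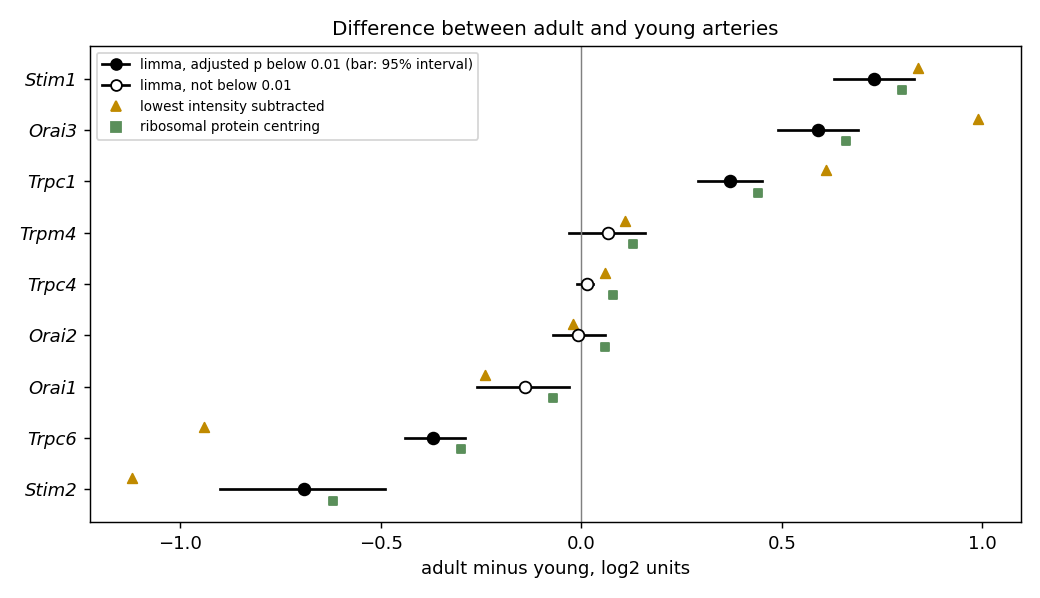
Adult minus young difference in log2 units (horizontal axis) of each gene, with the limma estimate as a circle (filled where the adjusted p was below 0.01) and its 95% interval as a bar. Triangles give the difference after subtraction of the lowest intensity and squares that after ribosomal protein centring; for Trpc6 the triangle lies at -0.94 against -0.37.

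Whether partners of a family changed unequally was tested within arrays, by subtracting the log2 value of 1 gene from that of its partner on the same array and comparing this difference between the ages. The pairs compared were 7, each with an exact two-sided permutation test, whose smallest possible p with 4 against 4 arrays is 0.0286, and p values were adjusted over the 7 pairs. Stim1 relative to Stim2 shifted by 1.42 ± 0.129 (SE) toward Stim1 in adult arteries (exact permutation p = 0.0286, adjusted p = 0.0333). Relative to the mean of the young arrays, the adult arrays stood at 1.25 to 1.57 and the young ones at -0.16 to 0.31, the latter being young replicate 4. Orai3 shifted by 0.73 ± 0.085 relative to Orai1 and by 0.60 ± 0.043 relative to Orai2. Trpc1 shifted by 0.74 ± 0.059 relative to Trpc6. These pairs gave the same exact permutation p of 0.0286 and adjusted p of 0.0333, with no overlap between the ages. Stim1 and Stim2, and likewise Trpc1 and Trpc6, had each already separated by age in opposite directions. The separation of their differences, and with it the p, was therefore fixed beforehand and adds no support. The gap of 0.46 between the ages in Orai3 was wider than the spread of Orai1 (7.70 to 8.04) or Orai2 (7.17 to 7.29) over all arrays. The p of both Orai3 pairs was thus also fixed and adds no support. Orai2 itself differed by -0.01, so the pair of Orai3 and Orai2 mainly restates the rise of Orai3. The pairs that hold Trpc4 set Trpc1 or Trpc6 against a probe set near the lowest value of the table, so they only restate the change of the partner and are not read as unequal change. Orai1 relative to Orai2 shifted by -0.13 ± 0.056, and its ages overlapped (exact permutation p = 0.0857, adjusted p = 0.0857). The test has a p of 0.0286 for any complete separation of the ages, so it does not rank the pairs that reached it. The within-array test does not depend on how arrays are centred, and it concerns unequal change only, not which partner changed. For the pairs that separated, it adds nothing to the changes of the single genes.

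**Figure D3:**
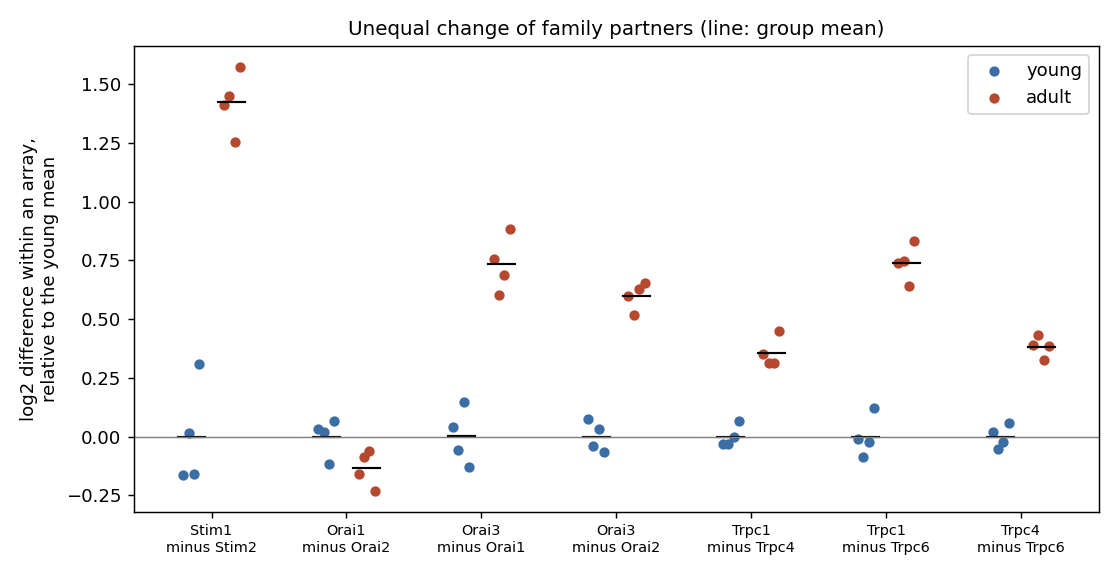
Within-array log2 difference between 2 partners (vertical axis), set relative to the mean of the young arrays, for the 7 pairs; blue points are young and red points adult arrays, and lines are group means. The adult points of the Stim1 and Stim2 pair lie between 1.25 and 1.57, and the Orai1 and Orai2 pair is the only one of the 7 in which the ages overlap; the pairs with Trpc4 show the change of its partner only.

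Other channels of the TRP superfamily were measured for comparison with the 9 genes. Among all rows 16.7% were called higher and 16% lower, the shares against which the counts of the lists stand. Of 23 measured genes, 1 rose and 1 fell, with a median difference of 0.01, and 9 were below the lower quartile of the table on all arrays. The count that rose was 2 without adult replicate 4, and the count that fell was 2 without young replicate 2. Trpm7, Pkd2 and Mcoln1 apart, the means of both ages lay below 7.29, the median of the table. Such weak signals compress log2 differences, which limits what the small differences of this list show. Pkd2 differed most, by 0.41 ± 0.108 (10.25 in adult and 9.84 in young arteries). Its ages did not overlap, but it did not pass the threshold (limma adjusted p = 0.0175). Trpv1, the capsaicin receptor, rose by 0.17 ± 0.022 (limma adjusted p = 0.000751), from 7.10 in young to 7.26 in adult arteries. Mcoln1, a channel of the lysosomal membrane, fell by 0.32 ± 0.042 (limma adjusted p = 0.000631). With ribosomal protein centring, where every gene had the same SE of 0.0905, the differences were 0.23 for Trpv1 and -0.25 for Mcoln1 and did not pass the threshold (adjusted p = 0.0383 and 0.023). With the lowest intensity subtracted Trpv1 differed by 0.48. Trpc2, Trpc5 and Trpc7 gave no difference that passed the test. They lay between 6.90 and 7.02 on every array, a range near the lowest value of the table like that of Trpc4.

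Proteins that act on STIM and ORAI or on the contacts between reticulum and plasma membrane also differed in direction. Of 14 measured genes, 4 rose and 2 fell, with a median of 0.01. Junctophilin 2 (Jph2), which tethers the reticulum to the plasma membrane in muscle, was at 9.94 to 10.43 in adult and at 9.18 to 9.29 in young arteries and rose by 0.98 ± 0.097 (limma adjusted p = 0.000175). Extended synaptotagmin 2 (Esyt2), a tether of the same contacts, rose by 0.45 ± 0.076, and Cracr2b, related to a calcium-binding regulator of ORAI1, by 0.12 ± 0.019. Tmem178a, an inhibitor of store-operated entry in mouse bone cells, fell by 0.31 ± 0.018, and the scaffold gene Homer3 fell by 0.36 ± 0.06. Saraf, which inactivates store-operated entry by acting on STIM1, differed by -0.04 ± 0.082 (limma adjusted p = 0.763). With ribosomal protein centring, again with the same SE for every gene, 2 of the 14 genes were called higher and 1 lower. Under it Tmem178a differed by -0.24 (adjusted p = 0.0303) and Cracr2b by 0.19 (adjusted p = 0.124), neither past the threshold. With the lowest intensity subtracted the differences were -0.88 for Tmem178a, -0.60 for Homer3 and 0.25 for Cracr2b.

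The steps that lead from a receptor to these channels were examined next. Of 14 genes for Gq proteins and phospholipase C, which releases inositol trisphosphate and diacylglycerol, 6 rose and 1 fell, with a median of 0.13. At a fold of at least 1.5, 2 rose and 1 fell, beside 716 higher and 711 lower of all 19239 rows (7.42% in either direction). Plcb4 rose by 1.00 ± 0.085 (limma adjusted p = 8.26e-05) and Plcb1, another isoform driven by Gq, by 0.78 ± 0.037 (limma adjusted p = 7.79e-06). Plce1, an isoform activated by small GTPases, differed by 0.54 ± 0.104 (limma adjusted p = 0.00464), and its adjusted p lay between 0.0104 and 0.015 without adult replicate 1, 3 or 4 or young replicate 1, 2 or 4. Plcg1, the isoform driven by receptor tyrosine kinases, fell by 1.05 ± 0.092 (limma adjusted p = 9.4e-05), with 9.16 to 9.38 in adult and 10.05 to 10.47 in young arteries. Of 8 diacylglycerol kinases, which remove the lipid that gates TRPC6, 5 rose, with a median of 0.18. At a fold of at least 1.5, 2 rose, beside the same 7.42% of all rows in either direction. With ribosomal protein centring 3 were called higher, but its same SE of 0.0905 for every gene can remove a call whose difference grew. Dgkg rose most, by 1.30 ± 0.094 (limma adjusted p = 4.05e-05), followed by Dgkb with 0.92 ± 0.062 and Dgkh with 0.46 ± 0.045. With the lowest intensity subtracted the rises of Dgkg and Dgkh were 2.04 and 0.79. All adult values of Dgkg, from 8.51 to 8.96, were above the young values of 7.39 to 7.54.

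Of 5 genes of store release and refilling, 2 rose and 2 fell. The inositol trisphosphate receptor Itpr1 rose by 1.07 ± 0.088 and Itpr3 fell by 0.28 ± 0.033 (-0.21 with ribosomal protein centring, adjusted p = 0.0763, and -0.56 with the lowest intensity subtracted), and the calcium pump Atp2a2 rose by 0.22 ± 0.024. The pump Atp2a3 fell by 0.71 ± 0.123 (limma adjusted p = 0.00266), a call that was lost without young replicate 1 or young replicate 3 (adjusted p = 0.0101 and 0.01).

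Calcineurin and its NFAT targets read out sustained calcium entry in many cells. Of 13 measured genes of this group, 3 rose and 2 fell, with a median of -0.09. Those that rose most were 2 inhibitors of calcineurin, Rcan2 by 1.77 ± 0.048 (limma adjusted p = 9.04e-07) and Rcan1 by 0.82 ± 0.054 (limma adjusted p = 2.88e-05). Rcan2 was at 10.17 to 10.32 in adult and at 8.40 to 8.58 in young arteries, the widest separation among the genes listed around the channels. The calcineurin subunit Ppp3cb differed by 0.28 ± 0.054, Nfatc3 by -0.25 ± 0.053 and Rcan3 by -0.10 ± 0.022 (-0.22 with the lowest intensity subtracted). These 3 calls did not hold under every setting, and with 1 array left out 0 to 1 of the 2 genes that fell passed the test. The adjusted p of Ppp3cb was up to 0.0137 with 1 array left out, and was 0.0129 without adult replicate 1 and 0.0107 without adult replicate 2. Without young replicate 2, 3 or 4 it was 0.0131, 0.0137 or 0.0113. For Nfatc3 it exceeded 0.01 without any 1 array except adult replicate 1 or young replicate 3, and for Rcan3 without any except adult replicate 2 or young replicate 2, with values up to 0.0204 and 0.0242.

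**Figure D4:**
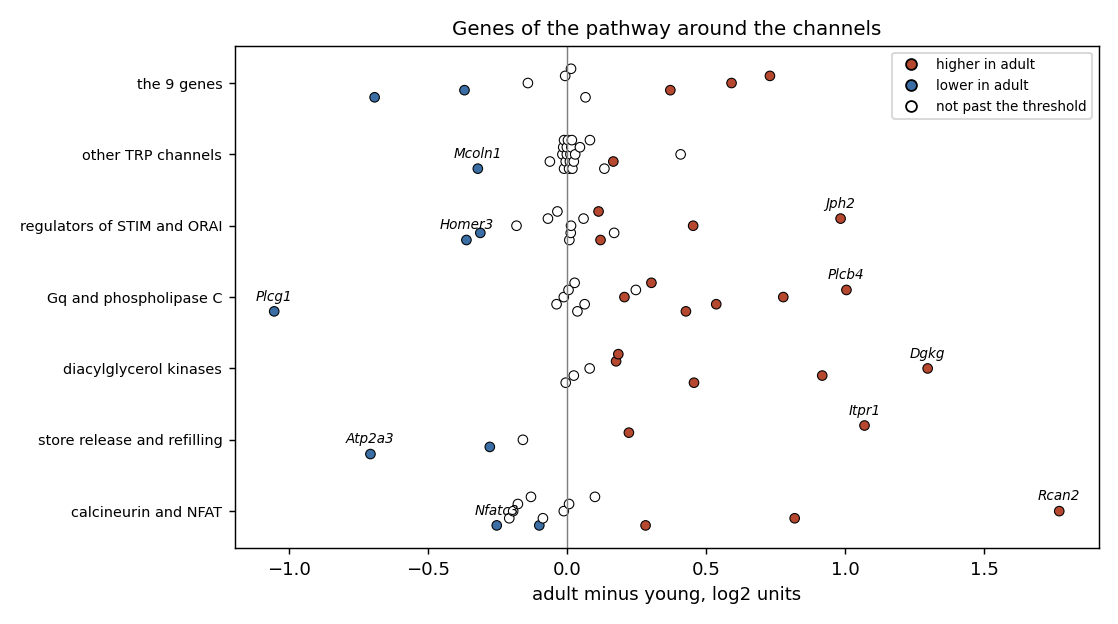
Adult minus young difference in log2 units (horizontal axis) of the 9 genes and of the genes in 6 lists around them, 1 point per gene, red where higher and blue where lower in adult arteries (limma adjusted p below 0.01). The other TRP channels gather near 0, and most of them have weak signals, at which log2 differences are compressed. The diacylglycerol kinases and the phospholipase C list reach up to 1.30 and 1.00, and the latter also down to -1.05.

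The genes whose pattern over the 8 arrays was most like that of each changed member were sought among 16492 named rows, and the correlations describe 8 points dominated by the step between the ages. Stim1 was closest to Pde5a, the phosphodiesterase that degrades cGMP in smooth muscle (Pearson r = 0.997, difference 0.71 ± 0.045), and to Plpbp (r = 0.996). Stim2 was closest to Palmd (r = 0.998, difference -0.67 ± 0.093) and to the growth factor pleiotrophin, Ptn (r = 0.997, difference -0.60 ± 0.068). Orai3 was closest to the homeobox gene Hoxa7 (r = 0.996) and the calcium-binding protein gene Gca (r = 0.995), and Trpc1 to the cartilage matrix gene Cilp (r = 0.998) and to Nfkbib (r = 0.996). Trpc6 was closest to the kinase gene Map2k6 (r = 0.996) and to Rasgrp3, an exchange factor for small GTPases that binds diacylglycerol (r = 0.996, difference -0.82 ± 0.053).

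The cell types of the samples were checked with fixed markers, whose levels also differed between the ages. All 6 measured smooth muscle markers rose, with mean levels of 12.54 to 12.66 in adult and 11.82 to 11.91 in young arteries, so that the defining markers of the labelled tissue were strongly present at both ages. Of 5 endothelial markers 2 fell (8.22 to 8.73 against 9.35 to 9.98), and all 5 were lower with an unadjusted limma p below 0.05. All 5 markers of dividing cells fell (7.01 to 7.04 against 8.45 to 8.73). Among the fibroblast markers 2 of 6 rose and 3 fell (10.19 to 10.31 against 10.24 to 10.33). Of 5 macrophage markers 4 rose (7.85 to 8.04 against 7.47 to 7.63) and of 4 mast cell markers 2 fell (7.0 to 7.07 against 7.33 to 7.55). No marker of skeletal muscle (6 genes, 8.07 to 8.20 against 8.13 to 8.95), adipocytes (5 genes, 7.06 to 7.18 against 7.15 to 7.47), Schwann cells and nerve (5 genes, 7.18 to 7.21 against 7.20 to 7.27) or lymphocytes (4 genes, 7.09 to 7.11 against 7.07 to 7.14) passed the threshold in limma or in the test named in the study's methods, and 9 of these 20 genes had an unadjusted limma p below 0.05 (7 in the other test). Among all rows, 45.5% had an adjusted limma p below 0.05, and the share with an unadjusted p below 0.05 cannot be lower. The 9 of 20 genes are therefore not read as a difference in these cell types. The markers of smooth muscle, endothelium, fibroblasts, macrophages, mast cells and dividing cells that passed the test differed between the same arrays as the 9 genes, and their part in the changes of these genes was not tested.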

How the data were processed

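Each RNA sample was measured by the authors on 1 Affymetrix array for rat genes. The authors deposited log2 expression values, made with RMA (named in the submitters' processing notes, version not given there) and quantile normalization, with 1 probe set per Entrez gene. All 8 columns held the same sorted values, from 6.80 to 13.82, with a median of 7.29, so that no overall shift between the ages can be seen in them. Beyond the name RMA, the sources used here do not describe the background correction. On a linear scale the lowest value is 111, which compresses differences of weak genes, and the number of arrays limits the precision.

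Gene symbols came from the platform's probe annotation, and older ones were replaced by way of Entrez Gene using RefSeq's GRCr8 genes. Of 19239 rows, 16592 carried 1 symbol, and the remaining 2647 rows stayed without a name. Groups were taken from the sample labels. The comparison of ages used lmFit and eBayes of limma 3.58.1 under R 4.3.3 (no covariate, all rows, two-sided, Benjamini-Hochberg adjusted p below 0.01), and the fit was tested on simulated data. The study used a one-way ANOVA, which was run as an alternative. The genes, gene lists and tests were chosen with earlier results of these data known. Named were all 9 genes, the TRPC genes measured, the 3 highest and 3 lowest called genes of each list at most, and the 2 rows most correlated with each changed gene. Genes outside this rule were named after their values were seen (Saraf, Pkd2 and Trpm7). Alternatives were run for the test (the ANOVA, variances moderated robustly along an intensity trend, weighted arrays), the scale (28 ribosomal protein genes set equal, or the lowest intensity taken off and 16 added), the rows (without the dimmest 25%), blocks (replicate number, or sample code up to or over 20), single arrays left out, and the call (adjusted p below 0.05, or a fold of at least 1.5 added).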

Additional observations from a re-analysis of the deposited data

How the results depend on the processing

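The calls of Stim1, Stim2, Orai3, Trpc1 and Trpc6 were kept, with their direction, under all 16 alternatives run for each of them, with differences of 0.70 to 0.84, -1.12 to -0.62, 0.56 to 0.99, 0.34 to 0.61 and -0.94 to -0.30. Orai1, Trpc4 and Trpm4 kept their sign and stayed outside the threshold. Trpc4 could not be fitted with the dimmest rows removed. Orai2 turned to 0.06 with ribosomal protein centring, to 0.0034 without adult replicate 3, to 0.01 without young replicate 3 and to 0.0038 without young replicate 4. With 1 array left out, 3 genes rose and 2 fell throughout, and Orai2 ranged from -0.03 to 0.01. With a fold of at least 1.5 in addition, 2 of the 9 genes rose and 1 fell. Trpc2 turned to 0.07 with ribosomal protein centring, 0.00083 with the sample code block, 0.00072 without adult replicate 4 and 0.0022 without young replicate 3, with -0.0031 to 0.0022 over all arrays left out in turn, and Trpc7 turned to 0.06 with ribosomal protein centring. That centring raised the median difference of all rows from 0.002 to 0.071. With it the calls moved from 3216 higher and 3080 lower (51.1% higher) to 2468 and 1555 (61.3% higher). Every gene then had the same SE of 0.0905, so a call could be lost though its difference grew, as for Trpv1 (0.17 to 0.23). A fold of at least 1.5 in the main fit left 716 and 711.

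Same-numbered arrays did not deviate together (correlations of -0.082 to 0.04), while differently numbered ones ranged from -0.294 to 0.244. With 4 arrays per age, this cannot show whether same-numbered samples shared any handling. With the replicate block, 2191 rows were higher and 2217 lower, and 0 of the 4 adult arrays correlated best with their own number. Of the 14 regulators of STIM and ORAI, 1 was called higher and 1 lower with this block, and the adjusted p was 0.0233 for Esyt2, 0.0115 for Cracr2b and 0.0196 for Homer3. In the paired test the shifts of Stim1 against Stim2 (1.42), Orai3 against Orai1 (0.73) and Orai2 (0.60), Trpc1 against Trpc4 (0.36) and Trpc6 (0.74) and Trpc4 against Trpc6 (0.38) had an exact permutation p of 0.125, the smallest that 4 pairs allow, and those with Trpc4 only restate the change of the partner. For Stim1 against Stim2 and Trpc1 against Trpc6 the p of 0.125 was fixed by the opposite separation of the genes. For Orai3 against Orai1 and Orai2 it was fixed by the gap between the ages in Orai3. With 1 array left out, the shift of Orai1 against Orai2 ranged from -0.17 to -0.10. It passed 0.05 without young replicate 3 (-0.17, exact permutation p = 0.0286).

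List counts moved as follows over the alternatives, which include other thresholds. All rows moved as well, with 716 to 4582 higher and 711 to 4171 lower. The fewest, 7.42% of all rows, were called at a fold of at least 1.5, and the most, 45.5%, at an adjusted p below 0.05. The ranges of the lists are therefore not read as a property of the lists. Other TRP channels had 0 to 5 higher and 0 to 2 lower, STIM and ORAI regulators 1 to 5 and 0 to 3, the Gq and phospholipase C genes 2 to 7 and 1 to 2, diacylglycerol kinases 2 to 5 higher, store genes 1 to 2 and 1 to 3, and calcineurin and NFAT genes 2 to 3 and 0 to 2.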
